A study of Mus musculus with 7 samples.

Results

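The genes of the cytotoxic granule were followed in regulatory T (Treg) cells of the mouse lung. They are the 4 granzymes Gzma, Gzmb, Gzmk and Gzmm, the pore-forming protein gene Prf1, the granule membrane protein gene Nkg7 and the granule proteoglycan gene Srgn. They were taken by gene symbol, and all 7 were found among the 19736 symbols listed for each library. RNA-seq was available for 3 libraries of CCR6+ Foxp3EGFP+ cells and 4 of CCR6– Foxp3EGFP+ cells, each sorted from digested whole lung. The sorted receptor, CCR6, binds the chemokine CCL20. Every library, in both groups, came from mice with the Il4raR576 genotype, a variant of the alpha chain of the IL-4 receptor, so the comparison is between CCR6 fractions and not between genotypes. The mice were female and 5 to 7 weeks old. They were sensitized with 100 µg of ovalbumin, boosted, given an ovalbumin aerosol of 1% for 30 min on each of 3 days from day 29, and killed on day 32. Treg cells were recognised by the EGFP reporter of Foxp3. Whether each library stands for its own mouse or pool of mice is not stated in the labels. The p-values below therefore reflect differences among libraries that may be no more than technical.

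Granzymes are serine proteases that cytotoxic lymphocytes store in secretory granules and release onto a target cell. Perforin opens pores in the target's membrane through which granzymes pass, serglycin is the proteoglycan matrix on which they are packed, and NKG7 is a membrane protein of the granule that takes part in its release. The programme is best known from CD8 T cells and natural killer (NK) cells, but activated mouse Treg cells are also known to make granzyme B, which has been linked to killing of effector cells and to suppression.

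The labels and the libraries were checked first. Ccr6 stood at 5488 ± 2414 normalised counts in CCR6+ libraries (SD, n = 3) and at 617 ± 312 in CCR6– libraries (SD, n = 4), with no overlap between the groups (limma adjusted p = 0.302, DESeq2 adjusted p = 8.15e-08). Foxp3, the Treg lineage factor used for the sort, stood at 12206 to 50875 in CCR6+ libraries, lowest in replicate 2, and at 19376 to 39097 in CCR6– libraries. A normalised count is the authors' read count divided by a size factor of the library. The reads behind the values came to 11607780 to 35182288 per CCR6+ library and 31083571 to 47261246 per CCR6– library. CCR6+ replicate 2 was the shallowest, with 1 read worth 2.27 normalised counts, against 0.677 to 1.01 in the other libraries. It also stood apart in its markers. The summed level of 8 T cell and Treg markers was 97822 there and 227440 to 263383 in the other CCR6+ libraries, against 153199 to 205645 in CCR6– libraries, whereas that of 7 lung epithelial markers was 75261 there and 3243 to 11242 in the other CCR6+ libraries, against 1663 to 8744 in CCR6– libraries. Each member's result is therefore given with and without CCR6+ replicate 2. In RNA from sorted populations, fewer cells of a kind and less RNA per cell cannot be told apart.

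None of the 7 genes passed the test across all genes, but 3 of them were low in CCR6+ cells in most or all libraries. Nkg7 was lower in every CCR6+ library than in any CCR6– library, about 2.03-fold by the means. Gzmk was 9.86-fold lower in CCR6+ replicates 1 and 3 than in CCR6– libraries, while CCR6+ replicate 2 stood at the CCR6– level. Prf1 was lower in CCR6+ replicates 1 and 3 alone. Groups without overlap and lower in CCR6+ libraries held for 5.53% of all genes, and for 8.62% without CCR6+ replicate 2. In either direction the shares were 13.5% and 19.2%. The levels of Gzma, Gzmb, Gzmm and Srgn overlapped between the groups. All 7 passed the filter on low values, which kept genes that reached 10 normalised counts in 3 or more libraries. With limma on log2(value + 1), 0 of the 7 had an adjusted p under 0.05, as did 0.0% of the 14582 genes tested. At an unadjusted p under 0.05 there was 1 of the 7, Nkg7, against 10.6% of all genes, with 8.22% higher and 2.35% lower. EdgeR and DESeq2 on the recovered reads also called 0 of the 7, where edgeR called 0.0137% of genes higher and DESeq2 called 3.85% higher and 0.973% lower. Every log2 difference is CCR6+ minus CCR6–. Those from limma compare means of log2(value + 1), which weigh single low libraries differently from a ratio of means, while edgeR and DESeq2 work on the reads. Adjusted p-values are Benjamini-Hochberg values, from limma and edgeR over all genes tested. DESeq2 gave adjusted p-values for 13770 of these genes, or 11455 without CCR6+ replicate 2. Shares of all genes called by DESeq2, here and below, are shares of those.

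**Figure D1:**
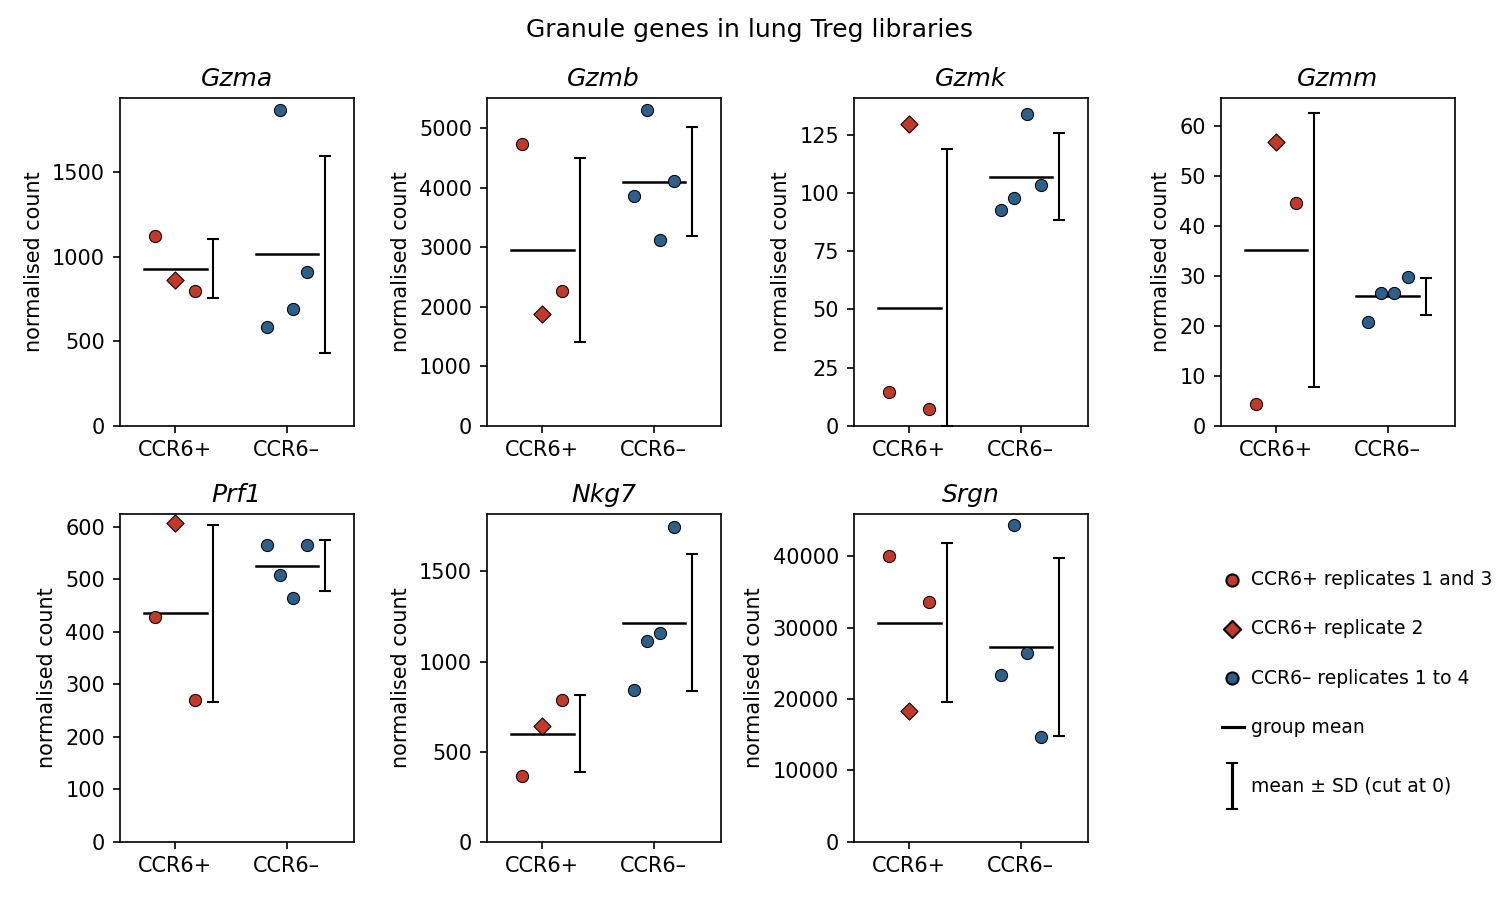
Normalised counts (linear axes from 0) of the 7 granule genes, with the CCR6+ libraries on the left and the CCR6– libraries on the right of each panel. Each symbol is 1 library, the diamond is CCR6+ replicate 2, the horizontal line is the group mean and the bar is the mean ± SD. Nkg7 is the gene whose groups do not overlap, and in the panels of Gzmk and Prf1 the diamond lies among or above the CCR6– points while CCR6+ replicates 1 and 3 lie below them.

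All 7 members are annotated as protein coding in GENCODE mouse release M21 on mm10. None shares exonic bases with another annotated gene, and no 50-base window of their transcripts recurs in a transcript of another gene. Gzma (ENSMUSG00000023132.8) lies on the minus strand of chromosome 13 from 113093825 to 113100981. Gzmk (ENSMUSG00000042385.14) lies on the same strand from 113171608 to 113225908, with 70.6 kb and 3 annotated genes, pseudogenes among them, between the pair. Gzmb (ENSMUSG00000015437.5) lies on chromosome 14 from 56258838 to 56262260, near the genes of granzymes C to G and N. On chromosome 10 lie Prf1 (ENSMUSG00000037202.6) from 61297833 to 61304680, Srgn (ENSMUSG00000020077.14) from 62493833 to 62527451 and Gzmm (ENSMUSG00000054206.2) from 79689020 to 79695261. Nkg7 (ENSMUSG00000004612.9) lies on chromosome 7 from 43437073 to 43438249.

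The promoters of Nkg7, Gzmk and Prf1 are shown because these are the 3 members that were below every CCR6– library in CCR6+ replicates 1 and 3. Sequences are from RefSeq on GRCm38.p6 and start 250 bases before the gene start that RefSeq gives. They run 5′ to 3′ on the gene's strand up to the start or to the first base of a GENCODE exon. Capitals mark matches, on either strand, to the RUNX core TGTGGT, the T-box half-site TCACAC or the AP-1 site TGANTCA.
Nkg7: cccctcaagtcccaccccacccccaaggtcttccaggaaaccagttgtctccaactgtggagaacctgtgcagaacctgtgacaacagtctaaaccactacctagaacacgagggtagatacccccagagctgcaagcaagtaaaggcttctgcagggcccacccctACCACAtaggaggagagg
Gzmk: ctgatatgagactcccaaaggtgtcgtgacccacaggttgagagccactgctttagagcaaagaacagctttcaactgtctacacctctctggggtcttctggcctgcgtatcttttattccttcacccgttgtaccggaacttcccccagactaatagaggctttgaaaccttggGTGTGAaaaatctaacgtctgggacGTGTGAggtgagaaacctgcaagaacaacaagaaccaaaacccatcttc
Prf1: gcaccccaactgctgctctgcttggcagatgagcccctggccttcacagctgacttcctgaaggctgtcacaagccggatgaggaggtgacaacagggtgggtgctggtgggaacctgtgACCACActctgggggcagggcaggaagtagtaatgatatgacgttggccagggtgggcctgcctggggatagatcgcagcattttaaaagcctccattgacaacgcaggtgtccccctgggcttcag
The stretch of Nkg7 is chr7:43436888-43437072 on the plus strand, that of Gzmk is chr13:113180966-113181215 on the minus strand and that of Prf1 is chr10:61297586-61297832 on the plus strand. For Gzmk the RefSeq start is not the outermost GENCODE start. Its stretch lies inside the gene as GENCODE bounds it (113171608 to 113225908). RUNX and T-box proteins are transcription factors of the cytotoxic programme in CD8 T and NK cells. The RUNX core was found in the stretches of Nkg7 and Prf1, with 1 match each, and in 10.7% and 13.9% of the 32851 RefSeq promoters cut to the same stretch. The T-box half-site was found in that of Gzmk, with 2 matches, and in 12.3% of promoters cut likewise. The AP-1 site matched none of the 3. No match here overlaps another, and a match of letters is a description and not a site of binding.

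Compared per kb of exon, the levels of the 7 genes spanned several orders of magnitude, and their order was nearly the same in every library. Srgn was first and Gzmb second in all 7 libraries. Srgn averaged 13955 ± 5069 normalised counts per kb in CCR6+ libraries and 12402 ± 5675 in CCR6– libraries, and Gzmb 2056 ± 1079 and 2856 ± 635 (SD, n = 3 and n = 4). Nkg7 and Gzma came next and changed places, with Gzma above Nkg7 in CCR6+ replicates 1 and 2 and CCR6– replicate 2. Nkg7 averaged 655 ± 234 per kb in CCR6+ and 1330 ± 417 in CCR6– libraries, and Gzma 924 ± 172 and 1008 ± 582. Prf1 was the fifth of the 7 in every library, at 168 ± 65.1 per kb in CCR6+ and 204 ± 18.9 in CCR6– libraries. Gzmk and Gzmm were at the bottom, Gzmk at 36.3 ± 49.5 and 77.1 ± 13.4 per kb and Gzmm at 24.0 ± 18.7 and 17.6 ± 2.54. Gzmk was above Gzmm in every library but CCR6+ replicate 3. Of the 4 granzymes, Gzmb was thus the most abundant transcript and Gzma the next in every library of both fractions, with Gzmk and Gzmm far below.

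**Figure D2:**
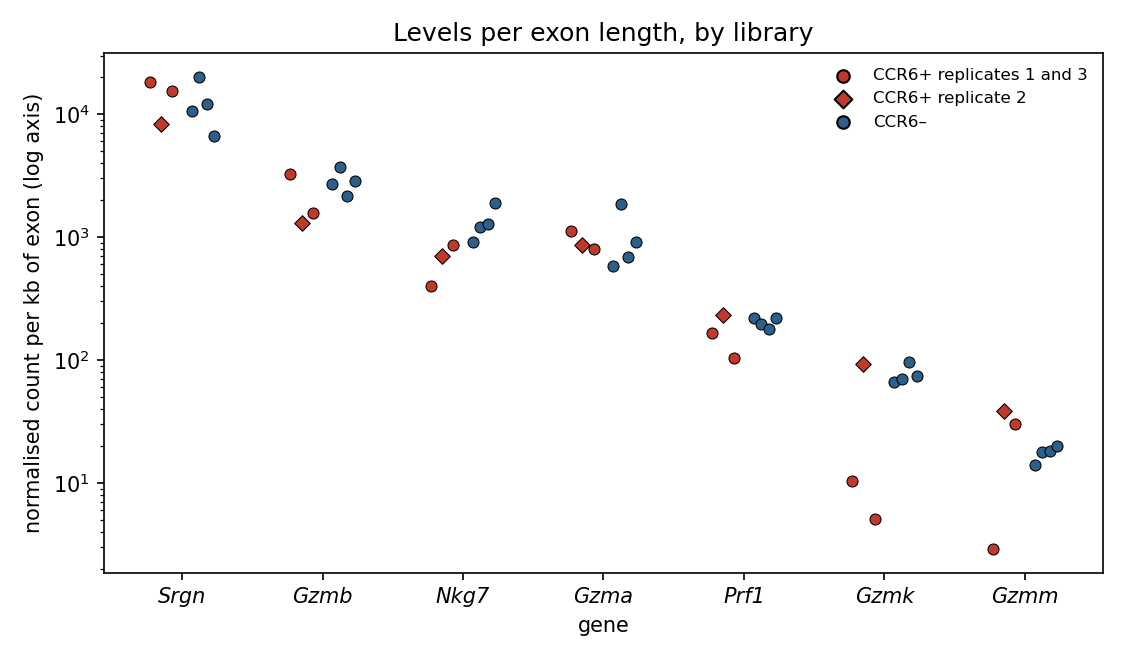
Normalised counts per kb of exon (log axis) of each gene, ordered by the median over the 7 libraries from Srgn to Gzmm. Each symbol is 1 library, with CCR6+ libraries to the left of CCR6– libraries and CCR6+ replicate 2 as a diamond. Every Srgn point lies above every Gzmb point and every Gzma point above every Prf1 point, whereas Nkg7 and Gzma overlap.

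Among the granzymes, Gzmb encodes the caspase-activating serine protease of the family that cleaves after aspartate. It had 4729, 1870 and 2261 normalised counts in CCR6+ replicates 1 to 3, against 3860, 5311, 3116 and 4116 in CCR6– replicates 1 to 4. CCR6+ replicates 2 and 3 were below every CCR6– library, but CCR6+ replicate 1 was the second highest of all 7. Its log2 difference was -0.57 (SE 0.37, 95% interval -1.47 to 0.33, limma adjusted p = 0.551), and -0.30 (SE 0.38, limma adjusted p = 0.928) without CCR6+ replicate 2.

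Gzma encodes a tryptase that cleaves gasdermin B in human target cells. It had 1126, 864 and 799 normalised counts in CCR6+ libraries, against 585, 1869, 690 and 912 in CCR6– libraries. The CCR6+ values lay within the range of the CCR6– values, whose spread rested on CCR6– replicate 2. With limma the difference was 0.014 (SE 0.43, 95% interval -1.02 to 1.04, adjusted p = 0.989), and 0.058 (SE 0.52, adjusted p = 0.993) without CCR6+ replicate 2. It turned negative with TMM scaling (-0.085) and without CCR6+ replicate 1 (-0.13), CCR6– replicate 1 (-0.20) or CCR6– replicate 3 (-0.12), so its direction is not settled here.

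Gzmk, a tryptase gene of effector memory CD8 T cells, was the member with the widest spread. It had 14.6, 129.7 and 7.11 normalised counts in CCR6+ libraries, against 92.7, 97.8, 134 and 104 in CCR6– libraries. CCR6+ replicates 1 and 3 were far below the 4 CCR6– libraries, which lay close together, and CCR6+ replicate 2 was inside their range. These values rest on 17, 57 and 7 reads in CCR6+ libraries and on 98, 118, 146 and 153 reads in CCR6– libraries. Per 1000000 reads of the library this was 0.483 (exact 95% binomial interval 0.281 to 0.774) in CCR6+ replicate 1, 4.91 (3.72 to 6.36) in CCR6+ replicate 2 and 0.254 (0.102 to 0.524) in CCR6+ replicate 3, against 3.15 (2.56 to 3.84), 3.33 (2.76 to 3.99), 4.64 (3.92 to 5.46) and 3.24 (2.74 to 3.79) in CCR6– replicates 1 to 4. These intervals cover counting error only, and those of CCR6+ replicates 1 and 3 lie below all the others. Over all libraries the log2 difference was -2.07 (SE 0.92, 95% interval -4.30 to 0.16, limma adjusted p = 0.478). Without CCR6+ replicate 2 it was -3.25 (SE 0.33, 95% interval -4.08 to -2.42), which still did not pass over all genes (limma adjusted p = 0.196, edgeR adjusted p = 0.235). DESeq2 without that library called it (adjusted p = 0.000115), where it called 0.698% of genes lower and 0.917% higher. In the limma fit without that library, Gzmk ranked 9 of 14582 genes by p, and 0.0892% of genes, Gzmk included, had a log2 difference at least as negative. Gzma, the member nearest to it on the chromosome, had no such low values. In CCR6+ replicate 2 the summed level of 12 CD8 T and NK cell markers was 4563. It was 848 to 2159 in the CCR6– libraries and 1303 to 1394 in the other CCR6+ libraries. Klrk1 (1190), Tyrobp (1024) and Fcer1g (919) were the largest parts of that sum in CCR6+ replicate 2. Cd8a, at 61.4, was lowest there of all 7 libraries, and Cd8b1, at 309, was above CCR6– replicate 4 (262) alone. The summed levels of neutrophil markers (5769) and of macrophage and monocyte markers (95338) were also highest in CCR6+ replicate 2. Which cells the Tyrobp and Fcer1g reads there came from cannot be told. The part of any of these cells in the Gzmk value of CCR6+ replicate 2 was not tested.

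Gzmm, whose product prefers methionine and leucine, was the lowest member. It had 4.30, 56.9 and 44.7 normalised counts in CCR6+ libraries, against 20.8, 26.5, 26.7 and 29.8 in CCR6– libraries. The CCR6+ values lay on both sides of the CCR6– values, CCR6+ replicate 1 with 5 reads below them and CCR6+ replicates 2 and 3 above them. Its log2 difference was -0.15 (SE 0.84, 95% interval -2.17 to 1.87, limma adjusted p = 0.938). It was -0.78 without CCR6+ replicate 2 and 0.94 without CCR6+ replicate 1 (limma adjusted p = 0.172), so its sign rests on single libraries. Quantile normalization gave -1.98 (limma adjusted p = 0.478).

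Prf1 had 428, 607 and 271 normalised counts in CCR6+ libraries, against 567, 508, 465 and 565 in CCR6– libraries. CCR6+ replicates 1 and 3 were below every CCR6– library and CCR6+ replicate 2 was above them all. For Prf1 the log2 difference was -0.34 (SE 0.29, 95% interval -1.05 to 0.36, limma adjusted p = 0.603), and -0.62 (SE 0.24, limma adjusted p = 0.724) without CCR6+ replicate 2. Without CCR6+ replicate 3 it was -0.041. Without CCR6+ replicate 2 the groups did not overlap, where 8.62% of all genes did not overlap and were lower.

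Nkg7 had 367, 641 and 788 normalised counts in CCR6+ libraries, against 843, 1112, 1160 and 1748 in CCR6– libraries. It was the only 1 of the 7 members whose groups did not overlap over all libraries, which held for 5.53% of all genes in this direction, 7.96% in the other and 13.5% in either. The mean was 599 ± 214 in CCR6+ libraries (SD, n = 3) and 1216 ± 381 in CCR6– libraries (SD, n = 4). The log2 difference was -1.04 (SE 0.36, 95% interval -1.91 to -0.17, unadjusted p = 0.0261, limma adjusted p = 0.449). It was nearly the same without CCR6+ replicate 2, at -1.13 (SE 0.43, limma adjusted p = 0.716). EdgeR gave an adjusted p of 0.314 and DESeq2 one of 0.0797. Of the markers of CD8 T and NK cells, 7 of 10 tested had positive log2 differences, 4 of them still so without CCR6+ replicate 2.

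Srgn, the matrix proteoglycan gene and the most abundant member, had 40001, 18334 and 33602 normalised counts in CCR6+ libraries, against 23359, 44368, 26505 and 14709 in CCR6– libraries. The groups overlapped throughout, and the lowest CCR6+ value was that of CCR6+ replicate 2. The log2 difference was 0.21 (SE 0.45, 95% interval -0.88 to 1.29, limma adjusted p = 0.833), and 0.54 (SE 0.45, limma adjusted p = 0.883) without CCR6+ replicate 2. It was -0.023 without CCR6+ replicate 1 and -0.052 without CCR6– replicate 4, so its sign rests on single libraries.

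Over the 7 members, 5 log2 differences were negative and 2 positive, with a median of -0.34, against 43.1% negative and a median of 0.097 over all genes. Without CCR6+ replicate 2, 5 were negative with a median of -0.62, against 46.4% negative and a median of 0.037 over all genes. In that fit 3 members, Gzmk, Prf1 and Nkg7, did not overlap and were lower in CCR6+ libraries, against 8.62% of all genes in this direction, 10.5% in the other and 19.2% in either. The same 3 had an unadjusted p under 0.05 (limma), against 6.89% of all genes (4.57% higher and 2.32% lower), and 0 had an adjusted p under 0.05.

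**Figure D3:**
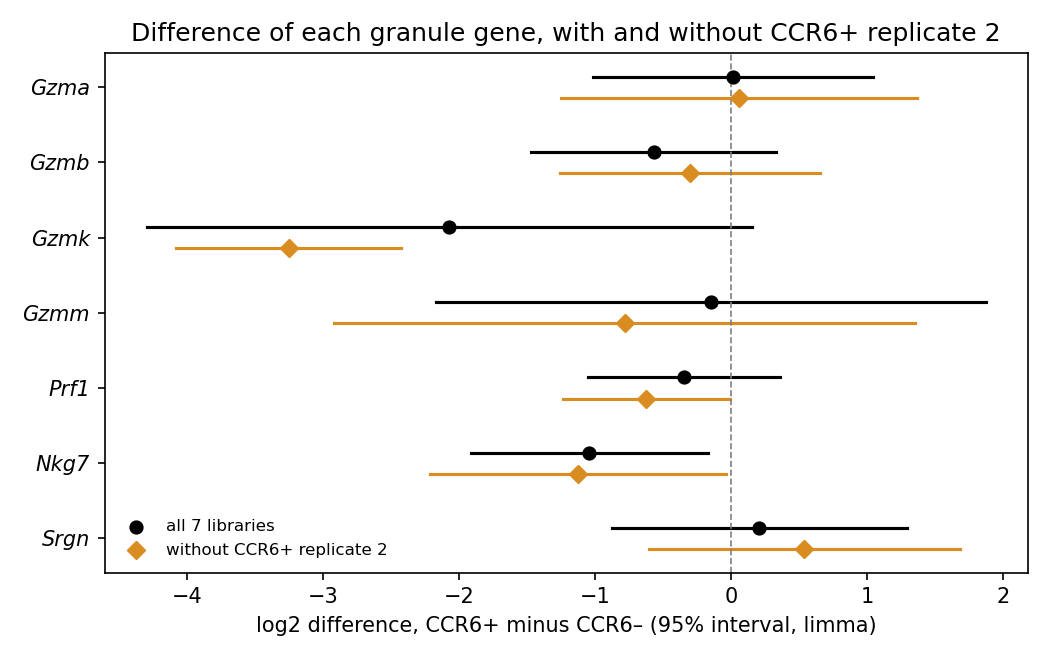
Log2 difference, CCR6+ minus CCR6–, of each granule gene with its 95% interval from limma. Circles are the fit over all 7 libraries and diamonds the fit without CCR6+ replicate 2. The value of Gzmk moves most, to -3.25 with a much narrower interval, that of Nkg7 stays near -1.1, and those of Gzma, Gzmb, Gzmm and Srgn have intervals on both sides of 0 in either fit.

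The wider granule pathway was read from 6 lists with 57 genes, of which 49 were tested. Limma called 0 of them in either direction, with 4 at an unadjusted p under 0.05 where 10.6% of all genes were, and edgeR called 0. DESeq2 called 2, both higher, where it called 3.85% of all genes higher and 0.973% lower. Of the other granule proteases, 4 of 9 passed the filter, 3 with positive and 1 with negative log2 differences (median 0.16). Ctsc, whose dipeptidyl peptidase activates granzymes, stood at 6861 ± 2412 normalised counts in CCR6+ libraries (n = 3) and 6290 ± 1873 in CCR6– libraries (n = 4). Ctsw, a cathepsin gene of cytotoxic lymphocytes, stood at 1873 ± 658 and 2088 ± 577, Ctsh, for cathepsin H, at 1859 ± 1647 and 814 ± 234, and the granzyme gene Gzmc at 88.0 ± 9.74 and 76.7 ± 11.5. The granzyme genes Gzmd, Gzme, Gzmf, Gzmg and Gzmn did not pass the filter. Gzmd and Gzme, which are named here after their values were seen, had 47.8 and 36.4 normalised counts in CCR6+ replicate 2, against at most 6.44 and 0 in CCR6– libraries. Ctsh likewise was highest in CCR6+ replicate 2, at 3735, and its mean without that library was 920 ± 380 (SD, n = 2).

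All 6 inhibitors and protective proteins were tested, 4 with positive and 2 with negative log2 differences (median 0.16, or 0.15 without CCR6+ replicate 2). Serpinb9, whose serpin inhibits granzyme B and shields the cell that carries it, stood at 1423 ± 421 normalised counts in CCR6+ and 1175 ± 525 in CCR6– libraries. Serpinb6a, another intracellular serpin gene, stood at 1393 ± 156 and 1144 ± 155, Cst7, for the cathepsin inhibitor cystatin F, at 1043 ± 490 and 1176 ± 376, and Calr, for calreticulin, at 27552 ± 5268 and 27239 ± 7019. The log2 difference of Cst7 was -0.24 over all libraries and 0.18 with CCR6+ replicate 2 left out. Limma, edgeR and DESeq2 called 0 of the 6. Limma called 0.0% of all genes, and Ccr6 itself had a limma adjusted p of 0.302. A missing limma call therefore does not show that the groups are alike.

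Granule biogenesis and exocytosis was represented by 13 tested genes, 5 positive and 8 negative (median -0.10, or 0.051 without CCR6+ replicate 2). Its most abundant members differed little. M6pr, a mannose 6-phosphate receptor gene that sorts granzymes to the granule, stood at 9527 ± 1924 in CCR6+ and 11533 ± 1432 in CCR6– libraries. Lamp1, for the lysosomal membrane protein exposed on degranulation, stood at 10691 ± 2809 and 9875 ± 616, Unc13d, for the priming factor Munc13-4, at 7664 ± 2270 and 8389 ± 1258, and Rab7 at 6908 ± 856 and 7727 ± 1703. Lamp2 was the 1 gene of this list whose groups did not overlap, at 7995 ± 1548 in CCR6+ and 5145 ± 1104 in CCR6– libraries (log2 difference 0.64, SE 0.25, limma adjusted p = 0.466, and 0.63 without CCR6+ replicate 2). This 1 of 13 stands beside 7.96% of all genes that did not overlap and were higher. It falls outside the rule for named genes and was chosen after its values were seen.

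The 13 enzyme genes that build and sulfate the glycosaminoglycan chains of serglycin and other proteoglycans split into 7 positive and 6 negative, and their median was 0.003 (-0.056 with CCR6+ replicate 2 left out). The most abundant were Chpf at 1872 ± 361 in CCR6+ and 1849 ± 149 in CCR6– libraries, Chst12 at 1653 ± 64.6 and 1649 ± 342, Ndst2 at 1394 ± 355 and 1664 ± 375, and Csgalnact2 at 1482 ± 358 and 1495 ± 147. Chpf and Csgalnact2 act on the chondroitin chain, Chst12 sulfates it, and Ndst2 modifies heparin in mast cells. B3galt6, which builds the linker between chain and protein and is also named after its values were seen, was the 1 gene of this list without overlap. It stood at 387 ± 60.8 in CCR6+ and 509 ± 34.1 in CCR6– libraries (log2 difference -0.41, SE 0.17, limma adjusted p = 0.472, and -0.32 without CCR6+ replicate 2), where 5.53% of all genes did not overlap and were lower. Of the 3 genes of other death pathways or of adhesion, Tnfsf10, for the death ligand TRAIL, was higher in every CCR6+ library, at 2338, 2520 and 1952 normalised counts against 1720, 1758, 1830 and 840 in CCR6– libraries (log2 difference 0.62, SE 0.32, limma adjusted p = 0.502, and 0.54 without CCR6+ replicate 2). Groups without overlap and higher in CCR6+ libraries held for 7.96% of all genes. Fasl, for the Fas ligand, stood at 187 ± 118 and 207 ± 80.5. Its log2 difference was -0.25 over all libraries and -0.73 without CCR6+ replicate 2 (limma adjusted p = 0.807 and 0.817), where its groups did not overlap. Without that library 8.62% of all genes did not overlap and were lower. Crtam, an adhesion receptor gene of cytotoxic T cells, stood at 95.9 ± 58.9 and 88.7 ± 20.7.

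Of 10 tested transcription factor genes tied to the cytotoxic programme, 6 had positive and 4 negative log2 differences (median 0.27, or 0.47 without CCR6+ replicate 2). Bhlhe40, for a factor of cytokine-producing T cells, stood at 10278 ± 1323 normalised counts in CCR6+ and 6546 ± 248 in CCR6– libraries with no overlap (log2 difference 0.64, SE 0.16, limma adjusted p = 0.415). Over all genes, 7.96% did not overlap and were higher. Bhlhe40 passed with DESeq2 (adjusted p = 0.000202, and 0.0174 without CCR6+ replicate 2). There DESeq2 called 3.85% of all genes higher, or 0.917% without that library. Tcf7, for TCF1, a factor of naive and memory T cells, stood at 10366 ± 5810 and 15336 ± 3197. Its log2 difference was -0.69 (SE 0.39, limma adjusted p = 0.519), or -1.11 without CCR6+ replicate 2, where DESeq2 called it (adjusted p = 0.00119) and limma did not (adjusted p = 0.513). Without that library DESeq2 called 0.698% of all genes lower. Id2, an inhibitor of E proteins, stood at 7769 ± 1087 and 5482 ± 1266, and Prdm1, for BLIMP1, at 5740 ± 2345 and 4696 ± 697. Without CCR6+ replicate 2 the log2 difference of Id2 was 0.44, against 0.52 with it, and that of Prdm1 was 0.58, against 0.21 with it (limma adjusted p = 0.720 and 0.769), with no overlap for Prdm1. In the libraries left, 10.5% of all genes did not overlap and were higher. Chosen after their values were seen, the T-box factor genes Eomes and Tbx21 had log2 differences of -1.12 and -0.52. Leaving out CCR6+ replicate 2 gave -1.87 and -0.60, and neither gene passed in either fit. Eomes stood at 42.1, 364 and 135 normalised counts in CCR6+ libraries, against 286, 351, 268 and 225 in CCR6– libraries, so that here too CCR6+ replicate 2 was high. Zeb2, called by DESeq2 (adjusted p = 0.0168), had 2272 normalised counts in CCR6+ replicate 2 and 216 and 402 in the other CCR6+ libraries, against 103 to 192 in CCR6– libraries, and was not called without CCR6+ replicate 2 (adjusted p = 0.446).

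Summed levels of the markers of other cell types were highest in CCR6+ replicate 2 in most lists. Limma called 0 markers in any list, as it called 0.0% of all genes. DESeq2 called markers in several lists, all of them higher, where it called 3.85% of all genes higher. Among these were the endothelial marker Kdr (DESeq2 adjusted p = 9.27e-05) and the epithelial marker Epcam (0.00967). Without CCR6+ replicate 2, DESeq2 called Kdr (adjusted p = 0.0283), Epcam (0.00124) and Ccr2 (0.00606) higher, where it called 0.917% of all genes higher. Of the 13 CD8 T and NK cell markers 12 were found, and their summed level was 1303 to 4563 in CCR6+ and 848 to 2159 in CCR6– libraries, with 7 of 10 tested log2 differences positive over all libraries and 4 of 10 without CCR6+ replicate 2. Cd8b1 stood at 430 ± 106 and 537 ± 228, whereas Fcer1g, for a signalling chain of NK cell and Fc receptors, stood at 440 ± 418 and 96.5 ± 81.3. Klrk1, named after its values were seen, did not overlap, at 474 ± 620 and 59.5 ± 34.8, with 1190 in CCR6+ replicate 2 alone. Over all genes, 7.96% did not overlap and were higher. Chosen for their zeros after the values were seen, as are the protease genes of the next sentences, the natural killer cell genes Klra4 and Xcl1 were at 0 in CCR6+ replicate 1, Klra4 also in CCR6– replicate 4. All 8 tested markers of mast cells and basophils had positive log2 differences, 7 of them without CCR6+ replicate 2, with a summed level of 1177 to 9809 in CCR6+ and 359 to 967 in CCR6– libraries. The mast cell protease genes Mcpt4 and Tpsb2 were at 0 in every library but CCR6+ replicate 2. All 6 tested neutrophil markers were positive too, 5 of them without that library, with sums of 562 to 5769 and 69.0 to 450, and the neutrophil granule protease genes Elane, Prtn3 and Ctsg were at 0 in some libraries. Those of macrophages and monocytes ranged over 39798 to 95338 and 18621 to 37516, of which Ccr2, also a T cell gene, made up a large share. Those of B cells ranged over 7329 to 60855 and 2640 to 12438, of gamma-delta T cells and innate lymphoid cells over 9816 to 21633 and 2885 to 12222, of plasmacytoid dendritic cells over 3660 to 11228 and 2174 to 3208, and of endothelium over 5949 to 32810 and 5399 to 6941. With and without CCR6+ replicate 2, all tested markers were positive for macrophages and monocytes (10), B cells (7) and gamma-delta T and innate lymphoid cells (6). For plasmacytoid dendritic cells 4 of 5 were positive, or 3 without that library. For endothelium 6 of 6 were, or 5 without it, and for epithelium 7 of 7, or 5 without it. Over all genes 43.1% were negative, or 46.4% without it. Il1rl1, the IL-33 receptor gene, which lung Treg cells also express, made up most of the sum for gamma-delta T cells and innate lymphoid cells in every library but CCR6+ replicate 2. Pecam1 likewise made up most of the endothelial sum in every library but CCR6+ replicate 2, and Cd74 most of the B cell sum in every library. The part of these cells in the granule gene values was not tested.

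**Figure D4:**
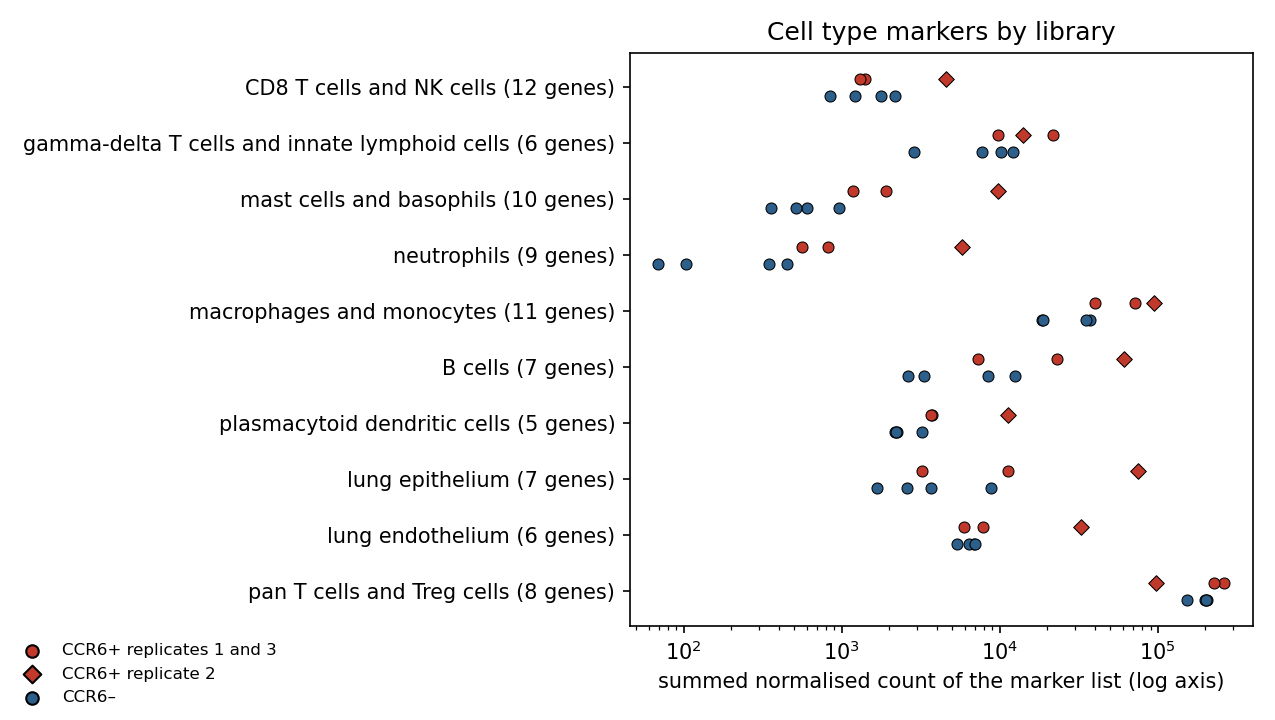
Summed normalised counts (log axis) of 10 lists of cell type markers by library, with CCR6+ libraries above CCR6– libraries in each row and CCR6+ replicate 2 as a diamond. That library is the highest in 8 lists and the lowest in the list of pan T cell and Treg markers.

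For each member the 3 genes of most similar profile were sought among 12367 or 12368 other tested genes with a mean of at least 50. Likeness is the mean absolute difference, over the 7 libraries, of log2(value + 1) centred on each gene's own mean. For Gzmk these were Prkar1b (0.394), Clcn2 (0.481) and Ifng (0.507), against a median of 1.37 over the genes compared. Ifng, which encodes interferon gamma, had 37.8, 154.7 and 4.06 normalised counts in CCR6+ libraries, against 211, 169, 162 and 163 in CCR6– libraries, so CCR6+ replicates 1 and 3 were low and CCR6+ replicate 2 was just under the CCR6– values. For Nkg7 they were Mgst2 (0.157), Evl (0.168) and Cd7 (0.184), against a median of 0.586. Cd7, a surface protein gene of T and NK cells, had 589, 639 and 732 in CCR6+ libraries, against 966, 1194, 1092 and 1977 in CCR6– libraries. For Gzmb they were Myc (0.106), C330027C09Rik (0.129) and Chordc1 (0.133), against 0.508. Myc had 4524, 1779 and 1894 normalised counts in CCR6+ libraries, against 3881, 4435, 3084 and 4588 in CCR6– libraries. For Gzma they were the cytochrome c oxidase subunit genes Cox7b (0.132), Cox7a2 (0.140) and Cox6b1 (0.155), against 0.521. For Prf1 they were Tspyl4 (0.047), Mettl13 (0.102) and Tctn3 (0.105), against 0.411. For Gzmm they were Cryz (0.218), Rcor3 (0.281) and Pfkfb2 (0.282), against 0.812, and for Srgn Cd53 (0.131), Zfp759 (0.133) and Zfp788 (0.142), against 0.551. Between members, the nearest pair was Gzmb and Prf1 (0.399) and the farthest Gzmk and Srgn (1.61).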

How the data were processed

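RNA of sorted lung Treg cells was turned into libraries with SMART-Seq v4 and KAPA Hyper Prep kits, per the labels' protocols. The deposited signal of each gene is taken as the authors' read count over the library's size factor, since 100% of values are whole multiples of 1 step per library within 0.001 reads. STAR 2.5.1b, HTSeq 0.6.1p1, DESeq2 1.6.3 and mm10 are listed, per the submitters' processing notes, with no role or order. Annotation, filters and strand use in counting: not given in the sources used here. Division by the step gave the reads.

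The 14582 genes that reached 10 in 3 or more libraries were tested, CCR6+ against CCR6–, with limma 3.58.1 (R 4.3.3) on log2(value + 1). The test was two-sided without covariates, at a Benjamini-Hochberg adjusted p of 0.05. Levels per kb use the union of GENCODE exons. EdgeR 4.0.16 and DESeq2 1.42.0 were run on the recovered reads. The other alternatives were pseudocounts of 0.5 and 8, no filter, a mean filter of 100, library totals made equal, TMM, quantile normalization, the replicate number as a block and each library left out. The scripts were tested on simulated data.

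The members, gene lists and tests were chosen with earlier results of these data known. The text names all members and, per list, up to 4 genes of highest mean and any past the threshold, and up to 3 markers, and per member the 3 genes of most similar profile. Markers named for being at 0 were chosen after their values were seen, as were Klrk1, Tyrobp, Cd8a, Epcam, Siglech and Spib. Of the listed genes, Vamp7, Klra8, Trdc, Tcrg-C1 and Tcrg-C2 were not analysed here.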

Additional observations from a re-analysis of the deposited data

Results flagged for a closer look

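For 25 quantities (each member, depth, the share of genes at 0 and the summed level of each list) the 4 CCR6– values were searched for a library far from the rest, and 3 held one, where chance gives about 5% of such sets. None of the 3 was a value of a single granule gene. In CCR6– replicate 4 the summed level of the 3 genes Fasl, Tnfsf10 and Crtam was 1254 normalised counts, with the other CCR6– values between 1989 and 2073. Tnfsf10 was low there, at 840 against 1720 to 1830, whereas Fasl, at 323.5, was the highest of the CCR6– libraries. Crtam, at 90.7, lay among the other CCR6– values. In the same library the summed level of 8 pan T cell and Treg markers was 153199, against 199857 to 205645. In CCR6– replicate 3 the summed level of 5 plasmacytoid dendritic cell markers was 3208, against 2174 to 2253. Ccr9 made up most of that sum, at 1916 against 825 to 1080 in the other CCR6– libraries. Tcf4 (470) and Siglech (80.0) were also highest in CCR6– replicate 3 among the CCR6– libraries, while Bst2 and Spib were not. With 3 CCR6+ libraries the same search could not be made there.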

How the results depend on the processing

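Over 19 alternatives (18 for Gzmk and Gzmm, which a mean of at least 100 leaves out) the log2 differences of Gzmb, Gzmk, Prf1 and Nkg7 stayed negative, at -0.97 to -0.22, -3.81 to -1.13, -0.66 to -0.041 and -1.27 to -0.72. The single call among the 7 members was that of Gzmk by DESeq2 without CCR6+ replicate 2 (-3.28). Gzma turned negative with TMM (-0.085), quantile normalization (-0.12), edgeR (-0.20, and -0.12 without CCR6+ replicate 2) and DESeq2 (-0.13, and -0.060 without CCR6+ replicate 2). Gzmm turned positive with a pseudocount of 8 (0.041), edgeR (0.32) and DESeq2 (0.41), while quantile normalization gave -1.98. Leaving out each library in turn gave -0.20 to 0.36 for Gzma, -0.78 to 0.94 for Gzmm, -0.052 to 0.54 for Srgn and -3.25 to -1.24 for Gzmk. With the replicate number as a block, Srgn was at -0.052 and Nkg7 at -0.85, with no call changed. The numbers are not taken to pair libraries. Deviations from the group mean correlated at -0.13, -0.11 and 0.34 for same-numbered libraries, and at -0.756 to 0.69 for differently numbered ones. These values cannot decide on pairing, since deviations sum to 0 within a group. The cause of the changes between alternatives was not tested. Of all genes, limma called 0 higher and 0 lower, against 1 higher with a pseudocount of 0.5 or TMM, 2 with a pseudocount of 8 or a mean of at least 100, and 0 to 1 with single libraries left out. EdgeR called 2 higher, with and without CCR6+ replicate 2. DESeq2 called 530 higher and 134 lower, or 105 and 80 without that library. The median over all genes was 0.18 with equal totals, -0.002 with TMM and -0.084 with quantile normalization, against 0.097. Gzmk and Gzmm rest on few reads, 5 to 153 per library. The fewest were not in the shallowest library, CCR6+ replicate 2, which had 57 of Gzmk and 25 of Gzmm. The share of genes at 0 was 2.16% there. It was 27.18% and 6.89% in CCR6+ replicates 1 and 3, and 7.09% to 29.73% in CCR6– libraries. The part of this difference in the values of these genes was not tested.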

Other observations

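Ratios between members within a library, taken on values per kb of exon, do not depend on the scaling of the libraries. Gzmb exceeded Prf1 19.9-fold, 5.54-fold and 15-fold in CCR6+ replicates 1 to 3, against 12.3, 18.8, 12.1 and 13.1-fold in CCR6– replicates 1 to 4, so that CCR6+ replicate 2 had the lowest ratio. The ratio of Gzmk to Gzma was 0.00939, 0.109 and 0.00644 in CCR6+ libraries, against 0.115, 0.0379, 0.141 and 0.0822 in CCR6– libraries, with CCR6+ replicates 1 and 3 below all others. Srgn exceeded Gzmb 5.53, 6.41 and 9.72-fold in CCR6+ libraries, against 3.96, 5.46, 5.56 and 2.34-fold in CCR6– libraries. The ratio of Nkg7 to Gzmb was 0.122, 0.539 and 0.547 in CCR6+ libraries, against 0.343, 0.329, 0.585 and 0.667 in CCR6– libraries. None of these ratios was tested.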
